A study of Homo sapiens with 6 samples.

Results

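The genes described here make fatty acids and remodel them. There are 10, namely ACLY, ACSS2, ACACA, FASN, ELOVL5, ELOVL6, SCD, FADS1, FADS2 and FADS3, taken by gene name from the 24878 genes of the deposited table. All 10 passed the filter on low counts that left 14601 genes for testing. The cells were MOLM-13, an acute myeloid leukaemia line of the monocytic M5 class. The control group held 2 libraries whose genotype is labelled control and which had no doxycycline. The knockout group carried a vector for CaMK2D knockout (KO) that is switched on by doxycycline, with 2 libraries after 3 days of doxycycline and 2 after 5 days. The knockout vector and doxycycline differ from the controls together, so their parts cannot be told apart. The labels do not say whether the cells were a clone, whether the controls carried any vector or when the controls were harvested. The comparisons ask which of these mRNAs differ after the knockout is induced, and whether they differ between the days.

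Fatty acid synthesis starts from acetyl-CoA in the cytosol. ACLY makes it from citrate and ACSS2 from acetate, ACACA carboxylates it to malonyl-CoA, and FASN builds palmitate from both. Elongases such as ELOVL6 and ELOVL5 lengthen the chain, SCD places the first double bond in saturated chains, and FADS2 and FADS1 add double bonds on the route from dietary precursors to arachidonate. Many of these genes are textbook targets of the sterol regulatory element-binding proteins (SREBPs), membrane-bound transcription factors that are released when sterols are scarce.

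The libraries held between 15456770 and 21081298 counts, and levels below are CPM, the count scaled to library size, on which 3 counts, the limit a count of 0 allows by counting error alone, come to 0.194 CPM in the shallowest library. CAMK2D, the targeted gene, had control levels of 23.0 and 14.5 CPM, day 3 levels of 14.7 and 15.6, and day 5 levels of 28.9 and 28.1. It passed the test in neither comparison with control (adjusted p = 0.437 and 0.118), although without control replicate 1 the day 5 value was 0.97 on the log2 scale with an adjusted p of 0.0317. The mRNA thus does not mark the knockout, and "KO-labelled" is used below for all 4 induced libraries. Mitochondrially encoded transcripts took 2.52% to 3.05% of the counts in the controls and 0.868% to 1.14% in the KO-labelled libraries. The 8 myeloid markers were all in the table, and they summed to 2251 to 2973 CPM in control libraries, 635 to 820.5 after 3 days and 526 to 824 after 5. FLT3, ITGAM, MPO and SPI1 fell at both days. Adipocyte and hepatocyte markers, which would mark the tissues best known for fatty acid synthesis, summed to at most 0.431 CPM in any library, with 3 of 6 in the table. Of the lymphoid markers 3 of 6 were in the table, at 81.8 to 116 CPM in the controls and 42.2 to 60.0 CPM in the KO-labelled libraries, nearly all from NKG7. Epithelial and stromal markers, 4 of 7, summed to 17.6 to 34.1 CPM with overlapping groups, and no erythroid or platelet marker of 5 was in the table. The part of the myeloid and mitochondrial shifts in the results below was not tested.

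At day 3, 6 of the 10 genes fell and none rose: FADS2, SCD, ACSS2, FADS1, FASN and ACLY. Over all tested genes 11.7% were called (edgeR quasi-likelihood test, Benjamini-Hochberg adjusted p under 0.05), 5.99% lower and 5.72% higher. At day 5, 7 fell and none rose, the same 6 and ACACA, against 14.5% of all tested genes called, 7.05% lower and 7.44% higher. The median log2 change of the 10 genes was −1.23 at day 3 and −0.89 at day 5, where the median over all genes was −0.00 and 0.01. The remaining genes were ELOVL5, lower in every KO-labelled library but short of the threshold, FADS3, whose day 5 libraries stood apart from each other, and ELOVL6, the only one with a higher mean at both days. The 2 comparisons share the control libraries and are not independent. In bulk RNA, fewer cells expressing a gene and less RNA per cell cannot be told apart.

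As a share of each library, the 10 genes took 0.393% and 0.36% of all counts in the controls. The shares were 0.165% and 0.168% at day 3 and 0.153% and 0.163% at day 5. No KO-labelled library reached the lower control, and the day 3 and day 5 shares lay close to each other. Summed over the 10 genes, the deposited FPKM, which is scaled to exonic length and so compares genes, was 624 and 579 in control libraries, 271 and 278 after 3 days, and 259.6 and 276 after 5.

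**Figure D1:**
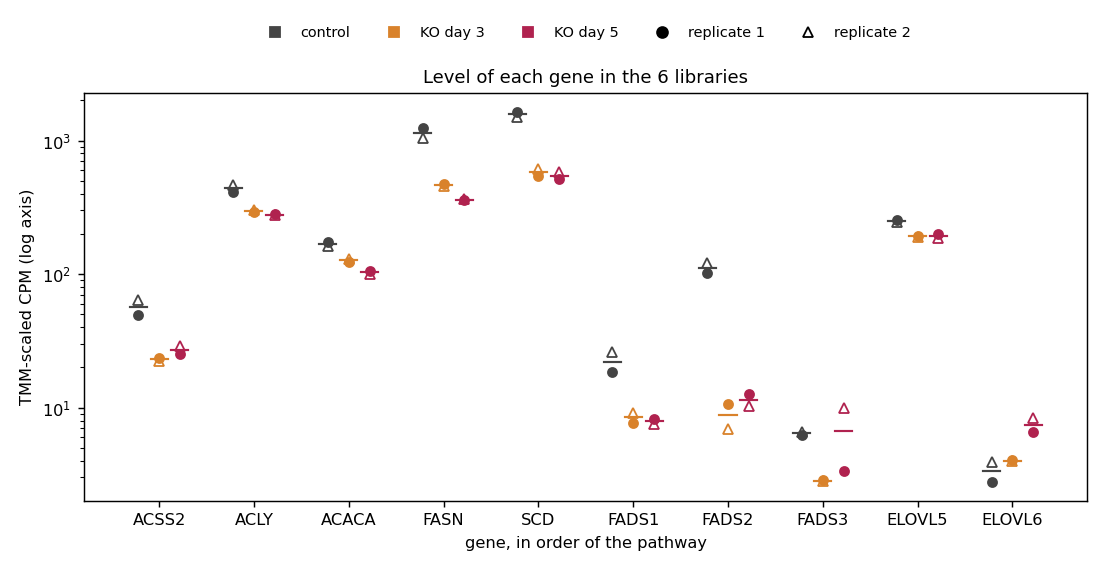
TMM-scaled CPM of each of the 10 genes (vertical log axis) in the 6 libraries, with circles for replicate 1, triangles for replicate 2 and short lines for group means. Both day 3 and both day 5 points lie below both controls for every gene except FADS3 at day 5, with libraries at 3.34 and 9.99 CPM, and ELOVL6, which lies above the controls.

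FADS2, SCD, ACSS2, ACLY and FADS1 fell at both days, and the stretches before their transcript starts are printed here because these genes fell together. The sequences are from RefSeq on GRCh38.p14, read 5′ to 3′ on the gene's strand and cut to bases that no annotated exon covers. Capitals mark the NF-Y box CCAAT and the Sp1 box GGGCGG, on either strand (ATTGG and CCGCCC on the other). The SCD stretch is chr10:100346983-100347123 (plus strand), and its last base lies 110 bases before the start. The ACLY stretch is chr17:41919023-41919272 (minus strand) and ends at the base before the start. The FADS1 stretch is chr11:61817198-61817253 (minus strand), ending 195 bases before the start, and the FADS2 stretch is chr11:61816154-61816255 (plus strand), ending 149 bases before the second of the RefSeq starts. The stretch of the other FADS2 start, chr11:61816149-61816202, ends at the base before it and overlaps the first. For ACSS2 (plus strand) the stretches are chr20:34874739-34874941, ending 48 bases before a start, and chr20:34876362-34876434, ending 178 bases before another.
SCD: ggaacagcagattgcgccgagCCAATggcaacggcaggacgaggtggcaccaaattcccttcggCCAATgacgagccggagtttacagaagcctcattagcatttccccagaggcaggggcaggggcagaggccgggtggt
ACLY: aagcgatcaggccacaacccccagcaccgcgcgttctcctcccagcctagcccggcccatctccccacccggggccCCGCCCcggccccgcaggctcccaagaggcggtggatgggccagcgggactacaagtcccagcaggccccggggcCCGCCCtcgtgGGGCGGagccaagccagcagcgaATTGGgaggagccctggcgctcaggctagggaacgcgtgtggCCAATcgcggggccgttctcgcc
FADS1: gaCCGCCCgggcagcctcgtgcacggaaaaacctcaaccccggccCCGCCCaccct
FADS2: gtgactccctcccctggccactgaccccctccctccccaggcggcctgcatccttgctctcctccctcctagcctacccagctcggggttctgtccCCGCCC
FADS2, other start: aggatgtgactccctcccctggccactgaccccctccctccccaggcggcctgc
ACSS2: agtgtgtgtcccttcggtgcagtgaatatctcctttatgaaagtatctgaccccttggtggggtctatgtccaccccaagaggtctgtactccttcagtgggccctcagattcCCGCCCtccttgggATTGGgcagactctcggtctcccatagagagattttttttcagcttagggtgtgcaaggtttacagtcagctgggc
ACSS2, other start: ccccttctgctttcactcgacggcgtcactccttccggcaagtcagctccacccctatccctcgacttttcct

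RefSeq promoters were found for 9 of the 10 genes, with 14 starts, and FASN was not among them. In the 250 bases before each start, the NF-Y box was found at 8 of 14 starts in 6 genes (SCD, ACLY, ACACA, ACSS2, ELOVL5 and FADS3), where 32% of 35116 promoters hold it. SCD and ACLY each held 2 copies, while FADS1, FADS2 and ELOVL6 held none in these bases. With the 50 bases after the start included, FADS2 gained a CCAAT just after its second start, making 9 of 14 starts in 7 genes, where 34.6% of promoters hold the box. The Sp1 box was found at 11 of 14 starts in 8 genes, against 42.6% of all promoters. The E-box CACGTG was found for ELOVL5 alone, against 6.34%, and the SREBP element TCACNCCAC at 0 of 14 starts, against 0.883%. These are letter matches in 1 short window. The windows of the ACLY starts overlap and count the same NF-Y boxes and most of the same Sp1 boxes more than once. The shares of all promoters are per start, so they do not stand beside the counts of genes. No excess over them was tested. GC content at the 14 starts ran from 43.6% to 81.6%, where the median promoter had 58%.

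ACLY and ACSS2, the acetyl-CoA suppliers, both fell. ACLY (chromosome 17, 41866908 to 41930542, minus strand, GRCh38 with GENCODE 29) gave 414 and 468 CPM in control libraries, 293 and 304 after 3 days, and 279.8 and 277 after 5. The 4 KO-labelled libraries lay within a narrow band below both controls. On the log2 scale this was a change of −0.56 (SE 0.12, adjusted p = 0.0223) at day 3 and −0.66 (SE 0.12, adjusted p = 0.0111) at day 5. Without KO day 3 replicate 1 or 2 the ACLY log2 change at day 3 was −0.53 or −0.57. At day 5 it was −0.68 or −0.66 without KO day 5 replicate 1 or 2. ACLY lost its call in each of these fits, which leave 1 library in a group. Calls over all genes dropped in the same fits. A call lost here or below when a library of the day compared is left out thus need not be particular to the gene. On log2(FPKM + 1) without a filter, the ACLY adjusted p from limma was 0.0664 at day 3. Of its exonic bases 2.99% are shared with an antisense gene, AC125257.2, whose reads the counts may include.

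ACSS2 (chromosome 20, 34872146 to 34927962, plus strand), which activates acetate, had a larger log2 change than ACLY, a difference that was not tested. It had control levels of 49.3 and 64.2 CPM, day 3 levels of 23.6 and 22.4, and day 5 levels of 25.0 and 29. Its KO-labelled libraries all lay below the lower control, at a fitted 40.5% and 47.6% of the control level. The change on the log2 scale was −1.30 (SE 0.18, adjusted p = 0.00588) at day 3 and −1.07 (SE 0.18, adjusted p = 0.00916) at day 5. Without KO day 5 replicate 1 the ACSS2 adjusted p at day 5 was 0.0507. On log2(FPKM + 1) without a filter, tested with limma, it was 0.0526 at day 3 and 0.0599 at day 5.

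FASN, the multi-domain synthase that assembles palmitate, was among the most abundant of the 10 and fell strongly. It lies on chromosome 17 (82078333 to 82098332, minus strand). FASN gave 1233 and 1044 CPM in control libraries, 471 and 460.3 after 3 days, and 358 and 364 after 5. The groups did not overlap in any comparison, and the libraries of each KO-labelled day lay very close together. Against control the log2 change was −1.29 (SE 0.13, adjusted p = 0.00185) at day 3 and −1.66 (SE 0.13, adjusted p = 0.000517) at day 5, which is 40.9% and 31.7% of the control level.

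ACACA, the carboxylase that makes malonyl-CoA, fell at day 5. It lies on chromosome 17 (37084988 to 37406818, minus strand). ACACA had control levels of 175 and 161 CPM, day 3 levels of 124 and 129.7, and day 5 levels of 105 and 101. The 3 groups did not overlap. The log2 change was −0.41 (SE 0.12, adjusted p = 0.0583) at day 3, short of the threshold, and −0.70 (SE 0.12, adjusted p = 0.00867) at day 5, 61.5% of the control level. With DESeq2 the day 3 adjusted p was 0.0148. Without KO day 5 replicate 2 the day 5 adjusted p was 0.0577, and limma on unfiltered log2(FPKM + 1) gave 0.0569.

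Neither of the 2 elongases passed the main edgeR test, which was fitted without a block. ELOVL5, which extends polyunsaturated chains (chromosome 6, 53267398 to 53349179, minus strand), gave 256 and 246 CPM in control libraries, 192 and 191 after 3 days, and 199 and 185 after 5. All 4 KO-labelled libraries lay below both controls, at 76.4% and 76.6% of the control level. On the log2 scale this was a change of −0.39 at each day (SE 0.11), with adjusted p of 0.0597 at day 3 and 0.0537 at day 5. With DESeq2 ELOVL5 passed at both days (adjusted p = 0.0112 and 0.00775). It also passed at both days in edgeR when genes had to reach 5 CPM in 2 libraries (0.0361 and 0.0353). At day 5 alone it passed in edgeR with relative log expression factors (0.0444) and with no filter (0.0299). Of 16 alternative settings, ELOVL5 passed in 3 at day 3 and 5 at day 5.

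ELOVL6, which extends palmitate to stearate, was scarce (chromosome 4, 110045846 to 110199199, minus strand). It had control levels of 2.76 and 3.93 CPM, day 3 levels of 4.06 and 3.95, and day 5 levels of 6.62 and 8.29, from 43 to 152 counts per library. The day 5 libraries lay above the other 4, and the day 3 libraries just above the higher control. The log2 difference from control was 0.26 (SE 0.34, adjusted p = 0.664) at day 3 and 1.15 (SE 0.34, adjusted p = 0.0565) at day 5. At day 5 the adjusted p was 0.0284 with DESeq2 and 0.0494 when genes had to reach 5 CPM in 2 libraries.

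SCD, the desaturase that makes oleate and palmitoleate, was the most abundant of the 10 and fell at both days. It lies on chromosome 10 (100347124 to 100364834, plus strand). SCD gave 1639 and 1499 CPM in control libraries, 545 and 614 after 3 days, and 512 and 579 after 5. Both controls lay far above all 4 KO-labelled libraries, and the days overlapped. Against control the log2 change was −1.44 (SE 0.13, adjusted p = 0.00145) at day 3 and −1.53 (SE 0.13, adjusted p = 0.000858) at day 5, 36.9% and 34.7% of the control level.

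FADS2, the desaturase that starts the polyunsaturated route, fell the furthest of the 10. It lies on chromosome 11 (61792980 to 61867354, plus strand). FADS2 had control levels of 102 and 120.3 CPM, day 3 levels of 10.7 and 6.92, and day 5 levels of 12.6 and 10.2. Controls and KO-labelled libraries were far apart, while the days overlapped. The log2 change was −3.66 (SE 0.24, adjusted p = 0.000401) at day 3 and −3.28 (SE 0.24, adjusted p = 0.000392) at day 5, leaving 7.93% and 10.3% of the control level. The 95% interval of the log2 change ran from −4.21 to −3.10 at day 3 and from −3.83 to −2.74 at day 5. Counted from the lowest log2 change among all 14601 tested genes, FADS2 stood at rank 103 at day 3 and rank 145 at day 5.

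FADS1, which acts after FADS2 and makes arachidonate, also fell at both days. Its annotated span (chromosome 11, 61799625 to 61829318) lies within that of FADS2, on the opposite strand. FADS1 gave 18.4 and 25.9 CPM in control libraries, 7.71 and 9.17 after 3 days, and 8.20 and 7.58 after 5. Its KO-labelled libraries lay together below both controls. On the log2 scale this was a change of −1.39 (SE 0.25, adjusted p = 0.0132) at day 3 and −1.49 (SE 0.25, adjusted p = 0.00887) at day 5. The FADS1 call was lost at day 3 without KO day 3 replicate 1 or 2 (adjusted p = 0.0988 and 0.0655) and at day 5 without KO day 5 replicate 2 (adjusted p = 0.0506). On log2(FPKM + 1) without a filter, limma gave 0.0933 and 0.0762. FADS1 and FADS2 share 490 exonic bases on opposite strands, 4.79% and 4.44% of their exonic lengths, and the kit is not said to mark strand, so reads there cannot be assigned. The ratio of FADS2 to FADS1 CPM was 5.53 and 4.65 in the controls and 0.754 to 1.54 in the KO-labelled libraries, without overlap.

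FADS3, a paralogue whose main known substrate is a sphingoid base, was low (chromosome 11, 61873519 to 61892051, minus strand). It had control levels of 6.22 and 6.61 CPM, day 3 levels of 2.86 and 2.80, and day 5 levels of 3.34 and 9.99. The day 3 libraries lay below both controls, but the day 5 libraries lay on either side, with 59 and 183 counts. The log2 difference was −1.18 (SE 0.49, adjusted p = 0.161) at day 3 and 0.05 (SE 0.48, adjusted p = 0.955) at day 5. Without KO day 5 replicate 1 it was 0.62 at day 5 and without replicate 2 −0.94. Leaving out KO day 5 replicate 1 brought the day 3 adjusted p to 0.0497.

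**Figure D2:**
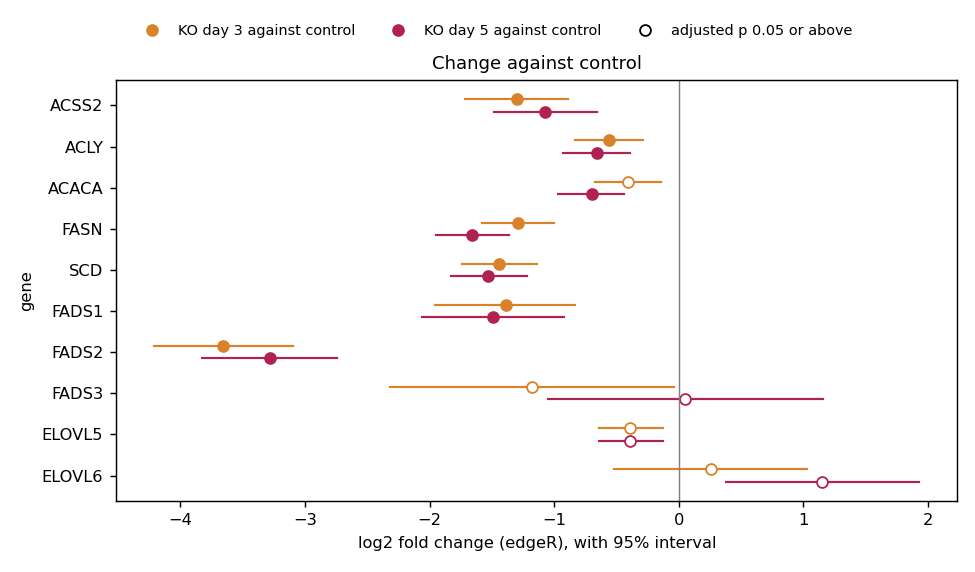
Log2 change of each of the 10 genes against control at day 3 and day 5 (points, horizontal axis) with the 95% interval of the edgeR fit (bars), open where the adjusted p was 0.05 or above. FADS2 lies furthest from 0 at −3.66 and −3.28, and ELOVL6 lies above 0.

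Without overlap between groups, 10 of the 10 genes separated from control at day 3 and 9 at day 5, FADS3 being the exception. Among all tested genes 30% lay wholly lower and 30.3% wholly higher at day 3, and 28.4% and 29.7% at day 5, so separation of 2 libraries against 2 is common here. At day 3, 4 to 7 of the 10 genes fell when any 1 of the 6 libraries was left out, and 4 to 7 at day 5. FADS2, SCD and FASN fell in all 6 of these fits at both days, and ACSS2 in all 6 at day 3. The count was 4 at day 3 without KO day 3 replicate 1 or 2, and 4 at day 5 without KO day 5 replicate 2.

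Between the induced days none of the 10 genes passed the test, against 0.0274% of all tested genes, 4 in number. At an unadjusted p under 0.05 there were 4 of the 10, FADS3, FASN, ACACA and ELOVL6, and 2206 of all genes, and DESeq2 called 0 of the 10. The log2 difference of day 5 from day 3 was −0.37 for FASN (95% interval −0.65 to −0.08, adjusted p = 0.258) and −0.30 for ACACA (−0.56 to −0.03, adjusted p = 0.293). Both were lower at day 5 in each library. For SCD the interval ran from −0.38 to 0.21, for ACLY from −0.37 to 0.17, and for ELOVL5 from −0.25 to 0.26. FADS2 ran from −0.16 to 0.91, FADS1 from −0.66 to 0.47 and ACSS2 from −0.18 to 0.65. ELOVL6 differed by 0.89 (0.13 to 1.66, adjusted p = 0.278) and FADS3 by 1.23 (0.09 to 2.37, adjusted p = 0.305), with FADS3 resting on the day 5 library at 9.99 CPM.

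Compared per exonic length by the deposited FPKM, SCD led in every group with a control mean of 293 ± 22.1 (SD, n = 2), a day 3 mean of 105 ± 7.05 and a day 5 mean of 105 ± 10.7. FASN came next in the controls at 122 ± 15.8, then ACLY at 84.4 ± 6.29 and ELOVL5 at 65.7 ± 2.69. Further down lay ACACA at 12.9 ± 0.916, ACSS2 at 10.5 ± 1.82 and FADS2 at 10.1 ± 1.05, with the control libraries of ACSS2 and FADS2 overlapping. FADS1 followed at 2.16 ± 0.487, FADS3 at 1.02 ± 0.0305 and ELOVL6 at 0.457 ± 0.107.

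The order changed in the KO-labelled libraries. At day 3 ACLY (55.7 ± 0.437) lay above ELOVL5 (48.9 ± 1.04) and FASN (48.5 ± 1.65), whose libraries overlapped. At day 5 FASN (39.6 ± 1.05) lay below both ACLY (54.8 ± 0.487) and ELOVL5 (51.7 ± 1.78). FADS2 dropped to the level of FADS1, at 0.779 ± 0.248 against 0.803 ± 0.0848 FPKM at day 3 and 1.06 ± 0.141 against 0.792 ± 0.0309 at day 5, overlapping at day 3. At day 5 the FADS3 libraries spanned those of FADS1, FADS2 and ELOVL6. SCD and FASN together made up 70.7% and 66.9% of the summed FPKM of the 10 genes in the controls, and 52.3% to 56.7% in the KO-labelled libraries. The ratio of SCD to FASN CPM was 1.33 and 1.44 in control libraries, 1.16 and 1.33 after 3 days, and 1.43 and 1.59 after 5.

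**Figure D3:**
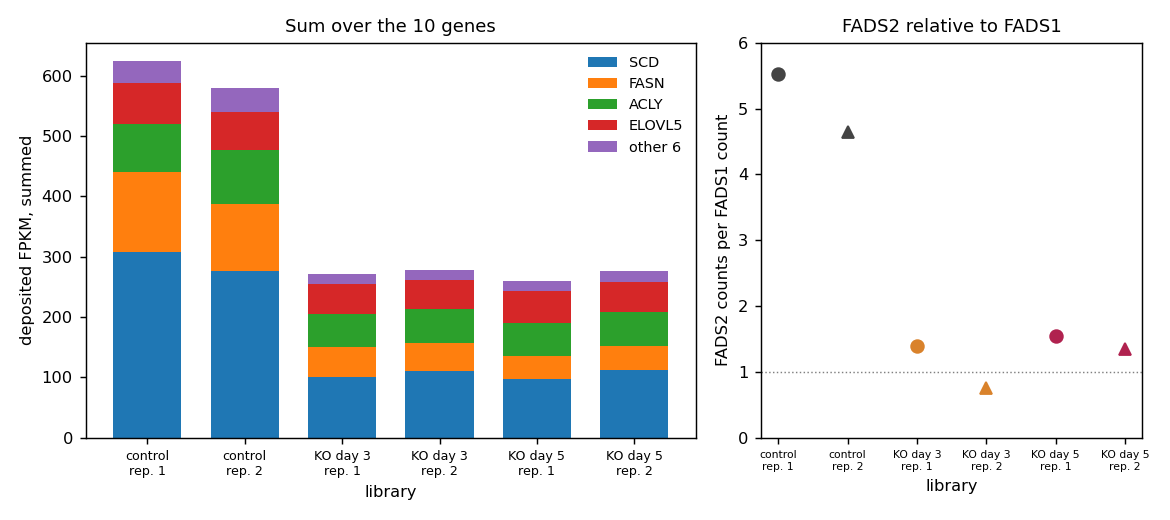
Deposited FPKM of the 10 genes stacked for each of the 6 libraries (left, linear axis from 0) and FADS2 counts per FADS1 count (right). The bars reach 624 and 579 in the controls and 259.6 to 278 in the KO-labelled libraries, with SCD the largest piece in each, and the ratio falls from 5.53 and 4.65 to between 0.754 and 1.54.

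FADS1 starts 36.3 kb and FADS3 99.1 kb beyond FADS2 by the outermost ends of their annotated spans. The RefSeq starts of FADS1 and FADS2 used above lie much closer, at 61817003 for FADS1 and at 61816203 and 61816404 for FADS2. The neighbours of these genes give the setting. Of the 7 neighbours tested, 1 fell (FEN1) and 2 rose (BEST1 and FTH1) at day 3, and 1 fell (FEN1) and 1 rose (FTH1) at day 5. Among all tested genes 11.7% were called at day 3 and 14.5% at day 5. FEN1, a flap endonuclease of DNA replication that shares 49 exonic bases with FADS2, gave 105 and 99.7 CPM in control libraries, 65.0 and 53.0 after 3 days, and 57.7 and 39.2 after 5. Its log2 change was −0.80 (adjusted p = 0.0384) at day 3 and −1.08 (adjusted p = 0.0129) at day 5. The FEN1 call at day 3 was lost without any 1 of the 4 libraries compared (adjusted p = 0.14 and 0.0887 without control replicate 1 and 2, 0.106 and 0.238 without KO day 3 replicate 1 and 2), and at day 5 without KO day 5 replicate 2 (0.0542). TMEM258, whose start is next to that of FEN1, was not called (adjusted p = 0.515 and 0.681). FTH1, ferritin heavy chain, rose from 69.5 and 57.7 CPM to 175 and 167 at day 3 and 563 and 702 at day 5, although its many processed copies make its counts uncertain. BEST1 had control levels of 3.34 and 2.83 CPM and day 3 levels of 8.02 and 7.30 (log2 1.31, adjusted p = 0.0327), a call that ended when either control (0.0844 and 0.103) or either KO day 3 library (0.184 and 0.151) was left out.

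**Figure D4:**
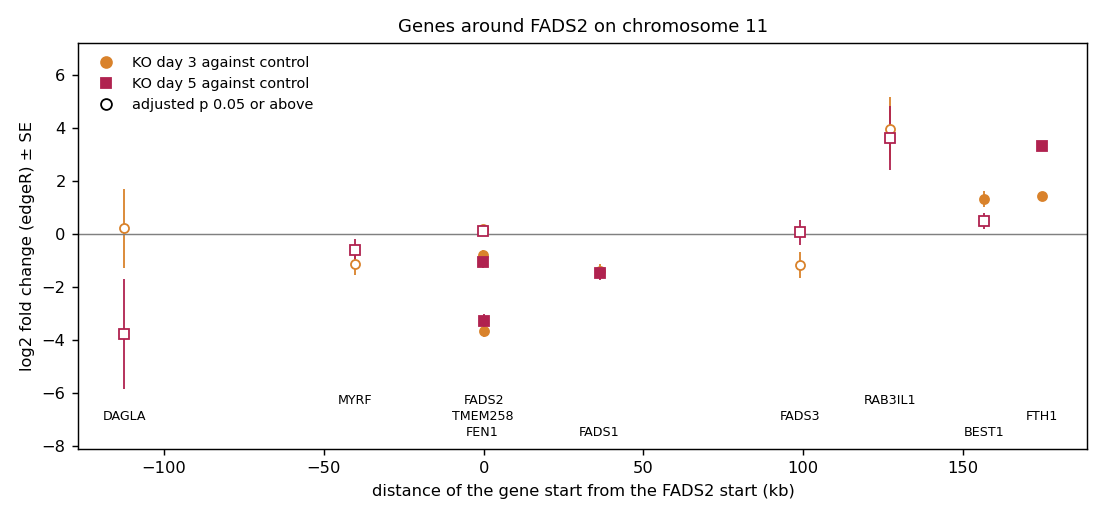
Log2 change against control (vertical axis, with standard error) of FADS1, FADS2, FADS3 and their 7 neighbours. The horizontal axis is the distance in kb of each outermost annotated gene start from that of FADS2. FADS2 is at −3.66 and −3.28, FEN1 at −0.80 and −1.08, and FTH1 at 1.43 and 3.31.

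Genes that control SREBPs moved unevenly. At day 3, 4 of the 10 fell (INSIG1, SREBF2, SREBF1 and MBTPS1) and none rose, with a median log2 change of −0.27. At day 5 the same 4 fell and MBTPS2 and RNF139 rose, with a median of 0.01. Over all tested genes 5.99% were called lower and 5.72% higher at day 3, and 7.05% and 7.44% at day 5. Whether this list differs from those shares was not tested. INSIG1, which holds SREBPs in the endoplasmic reticulum and is itself an SREBP target, had control levels of 374 and 394 CPM, day 3 levels of 87.7 and 92.0, and day 5 levels of 83.9 and 86.3. Its log2 change was −2.10 (SE 0.12, adjusted p = 0.000208) and −2.18 (SE 0.12, adjusted p = 0.000141). SREBF1, which encodes the SREBP best known for fatty acid genes, gave 265 and 230.3 CPM in control libraries, 144 and 173 after 3 days, and 103 and 127 after 5. The groups did not overlap, and the log2 change was −0.65 (adjusted p = 0.0349) and −1.11 (adjusted p = 0.00495). The SREBF1 day 3 adjusted p rose to 0.0937 with control replicate 1 left out, and to 0.236 and 0.0989 with KO day 3 replicate 1 and 2 left out.

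SREBF2, the sterol-gene counterpart, had control levels of 492 and 400.0 CPM, day 3 levels of 221 and 219, and day 5 levels of 212 and 279. Its log2 change was −1.02 (adjusted p = 0.0100) and −0.86 (adjusted p = 0.0147), lost without KO day 3 replicate 1 or 2 at day 3 (0.0697 and 0.0707) and without KO day 5 replicate 1 at day 5 (0.0661). MBTPS1, a protease that releases SREBPs, changed by −0.64 (adjusted p = 0.0167) and −0.83 (adjusted p = 0.00576), and its day 3 call was lost without KO day 3 replicate 1 or 2 (0.144 and 0.124). SCAP, the escort of SREBPs, had control levels of 111 and 99.5 CPM and 108 to 128 in the KO-labelled libraries and was not called (adjusted p = 0.147 and 0.737). INSIG2 and C12orf49 were not called either. At day 5 MBTPS2, the second protease, had a log2 change of 0.73 (adjusted p = 0.0491) and RNF139, a ubiquitin ligase, 0.60 (adjusted p = 0.0318). The MBTPS2 call was lost without any 1 library (adjusted p from 0.0859 to 0.175) and that of RNF139 without any but control replicate 1 (0.0717 to 0.128).

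Sterol-side targets of SREBPs fell beside the fatty acid genes. All 5 that were tested fell at day 3 (median −1.16) and 4 of 5 at day 5 (median −1.01). The shares of all tested genes called lower were 5.99% at day 3 and 7.05% at day 5. Whether this list differs from those shares was not tested. SQLE, squalene epoxidase, gave 106 and 96.1 CPM in control libraries, 46.6 and 47.3 after 3 days, and 45.5 and 51.5 after 5. All 4 KO-labelled libraries lay below both controls, and its log2 change was −1.11 (adjusted p = 0.00354) and −1.06 (adjusted p = 0.00343). HMGCS1, an early enzyme of sterol synthesis, changed by −1.44 (adjusted p = 0.00307) and −0.76 (adjusted p = 0.0190), and its day 5 call was lost without KO day 5 replicate 1 (0.0938). The difference between these genes and SCD, FASN or ACSS2 was not tested. STARD4, a sterol carrier, was the gene that did not pass at day 5 (adjusted p = 0.705). Its day 3 change of −1.16 (adjusted p = 0.00892) lost its call without KO day 3 replicate 1 (0.0685) or 2 (0.0633). Leaving out 1 library gave 4 to 5 of these genes at day 3 and 3 to 4 at day 5.

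Genes that supply acetyl-CoA and NADPH did not move together. Beside the counts of this paragraph stand the 11.7% of all tested genes called at day 3 and 14.5% at day 5. Whether these lists differ from those shares was not tested. Of 15 tested, 2 fell (SLC25A1 among them) and 1 rose (ME2) at day 3, and 2 fell (SLC25A1 and CS) and 2 rose (ME2 and IDH1) at day 5, with a median of −0.04 at each day. Leaving out 1 library gave 0 to 2 that fell and 0 to 3 that rose over both days. SLC25A1, which exports the citrate that ACLY uses, had control levels of 65.8 and 84.9 CPM, day 3 levels of 43.0 and 39.1, and day 5 levels of 40.8 and 45.8. Its log2 change was −0.88 (adjusted p = 0.0160) and −0.80 (adjusted p = 0.0182), lost without KO day 3 replicate 1 or 2 at day 3 (0.0825 and 0.124) and without KO day 5 replicate 1 or 2 at day 5 (0.0870 and 0.0611). ME2, a mitochondrial malic enzyme, was higher, at 0.72 (adjusted p = 0.0211) and 0.80 (adjusted p = 0.0125). That call was lost at day 3 without KO day 3 replicate 1 or 2 (0.0556 and 0.151) and at day 5 without KO day 5 replicate 2 (0.0712). Of 8 tested genes of LXR and carbohydrate-response control, none was called at day 3 and MLX alone fell at day 5, with 0 to 1 that fell and 0 to 2 that rose when 1 library was left out. Of 19 tested genes for other steps of chain building, HACD1 fell and MECR and HSD17B8 rose at day 3, and ELOVL1 and HACD1 fell at day 5. Leaving out 1 library gave 0 to 2 that fell and 0 to 3 that rose there.

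**Figure D5:**
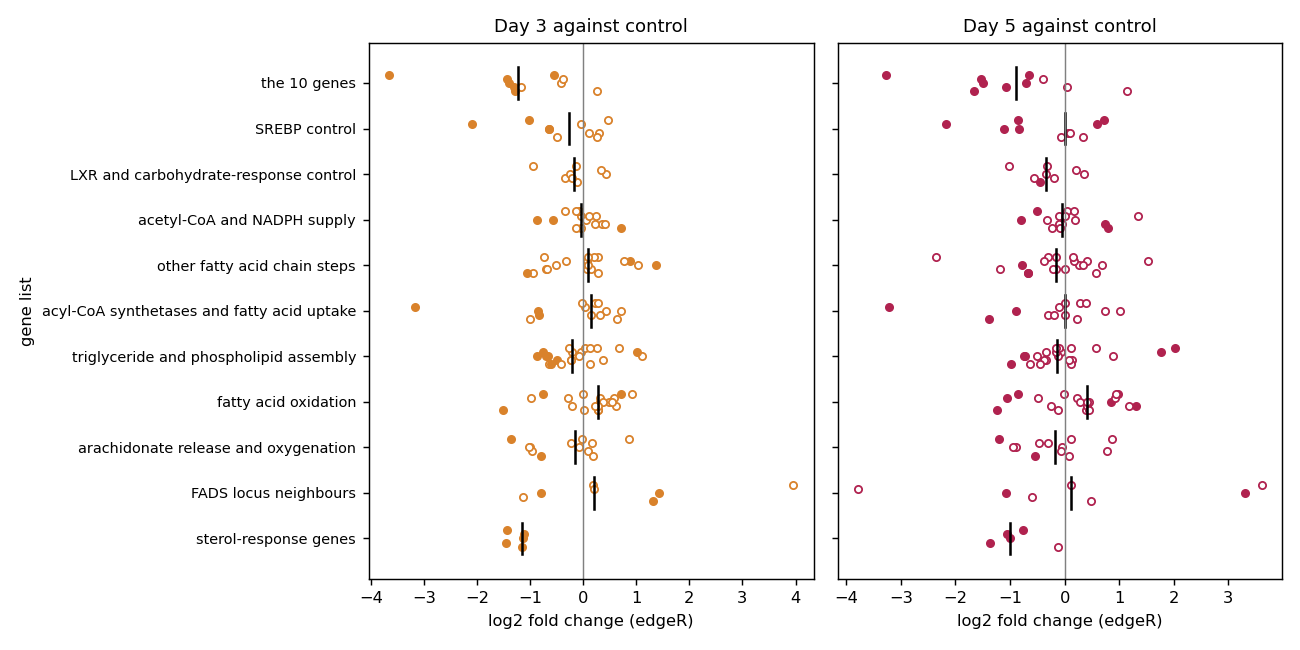
Log2 change against control at day 3 and day 5 (horizontal axis) of the tested genes of each pathway list, filled where called, with the list median as a bar. The medians of the 10 genes (−1.23 and −0.89) and of the sterol-side targets (−1.16 and −1.01) lie below 0, and the list on acetyl-CoA and NADPH supply lies at −0.04.

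By Euclidean distance of log2(CPM + 0.5) from the control mean over the 6 libraries, the genes nearest to FADS2 among 9568 protein-coding genes were AQP3, CD36, CHI3L1, RNASE2 and ROS1, at distances of 0.928 to 1.15. CD36, a fatty acid uptake receptor, gave 69.8 and 43.0 CPM in control libraries, 8.39 and 4.12 after 3 days, and 7.12 and 5.07 after 5. AQP3, a channel for water and glycerol, had control levels of 58.8 and 95.3 CPM and 4.74 to 7.69 in the KO-labelled libraries. CHI3L1 and RNASE2, secreted proteins of myeloid cells, had control levels of 1207 and 926 and of 559 and 443 CPM, and 76.8 to 132 and 44.9 to 66.2 in the KO-labelled libraries. ROS1, a receptor tyrosine kinase, had control levels of 16.0 and 11.7 CPM and 0.439 to 2.43 in the KO-labelled libraries. These genes were chosen for their likeness to FADS2, so their levels are a description.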

How the data were processed

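RNA-seq of poly-A selected RNA covered 6 MOLM-13 libraries, 2 per group. Per the file headers, the deposited table gives raw read counts and FPKM per gene and library. The submitters' processing notes name HISAT2, HTSeq 0.11.2, DESeq2 1.26.0 and GRCh38 with no role or order. Nothing on aligner options, annotation or strand setting is given in the sources used here. All 24878 identifiers and names matched GENCODE 29, and for 99.7% of genes the length implied by the deposited FPKM matched the summed exon length within 0.5 bases.

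The deposited counts were tested with edgeR 4.0.16 (R 4.3.3): TMM factors (0.962 to 1.04), filterByExpr (minimum count 10, minimum total 15), which kept 14601 genes holding at least 99.8% of counts, 1 robust quasi-likelihood fit of the 3 groups without a block, and Benjamini-Hochberg adjustment over all tested genes at 0.05. Residual degrees of freedom were 3, and the prior added a median of 5.12. SE is the absolute log2 change over the square root of F. Log2 changes carry a prior count of 0.125. CPM is TMM-scaled. Percent of control is the fitted edgeR log2 change turned back to a linear scale. On simulated data the test missed most of the smaller changes, and false calls made up a larger share of its calls than the threshold. For day 3, 97 genes were changed 2-fold and 99 4-fold among 14147. Of these 43.3% and 67.7% were recovered, with 20 false calls. Far fewer genes were changed there than were called in the data, and both results depend on that share. They are therefore not error rates of the results above. Libraries of a group differed by more than sampling noise. Nothing in the labels ties the libraries to separate cultures, so the p-values describe the spread between libraries and that spread could be technical.

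The 10 genes and all lists and motifs were chosen with earlier results of these data known. Named genes are the 10 genes, CAMK2D, up to 4 called genes per list by smallest adjusted p, all tested SREBP control genes and the 5 nearest to FADS2. Some genes that the rule takes are left out of the text. FLT3, ITGAM, MPO, SPI1, NKG7, TMEM258, STARD4, and the lipid assembly genes DGAT1, LPCAT1, LPCAT4, PLIN3 and GPAT3, and SLC25A20 and PPARA, were named after their values were seen. Alternatives tried were upper-quartile and relative log expression factors, no filter, 5 CPM in at least 2 libraries, DESeq2 1.42.0, fits of only the 4 libraries compared, the replicate number as a block, each library left out, and limma 3.58.1 on log2 FPKM with a pseudocount of 1 or 0.1 for genes with a mean FPKM of 0.5 or more, or with 1 and no filter.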

Additional observations from a re-analysis of the deposited data

Results flagged for a closer look

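FTH1, the ferritin heavy chain gene near FADS2, rose further from day 3 to day 5, with a log2 difference of 1.89 (SE 0.15, adjusted p = 0.0116 in the edgeR fit). Its libraries were at 175 and 167 CPM at day 3 and 563 and 702 at day 5, so the response to induction differed between the days. The call was lost without KO day 3 replicate 1 (adjusted p = 0.157) or 2 (0.190) and without KO day 5 replicate 2 (0.0566). None of the 10 fatty acid genes differed between the days by this test. Groups of 2 libraries were too small to look for single libraries that stand apart.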

How the results depend on the processing

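No called log2 change of a named gene changed sign under the alternatives run. Over the named genes 2415 values stayed on their side of the threshold, 58 gained a call and 167 lost one. With limma on unfiltered log2(FPKM + 1), 3 of the 10 genes fell at day 3 and 4 at day 5. Leaving out each library gave 4 to 7 of the 10 at day 3, 4 to 7 at day 5 and 0 to 0 between the days. Over all genes it gave 282 to 1906 at day 3, 723 to 1874 at day 5 and 1 to 15 between the days. All genes called at day 3 were 2925 with no filter, 2591 with DESeq2 and 254 with unfiltered limma. At day 5 they were 3234 with no filter, 1315 with only the 4 libraries compared and 605 with unfiltered limma. Between the days they were 599 with no filter, 439 with DESeq2, and with limma 1 on log2(FPKM + 1), 0 on log2(FPKM + 0.1) and 0 unfiltered. The cause of these differences was not tested.

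With the replicate number as a block, 4064 genes were called at day 3, 4418 at day 5 and 1117 between the days, and 9 of the 10 genes at day 3, 9 at day 5 (8 lower and ELOVL6 higher) and 0 between the days. The genes gained were ACACA (adjusted p = 0.0129), ELOVL5 (0.0141) and FADS3 (0.0344) at day 3, and ELOVL5 (0.013) and ELOVL6 (0.0119) at day 5. Samples with the same number deviated together (r = 0.34, 0.286 and 0.324 over 14601 genes, and 0.523, 0.447 and 0.635 over the 10190 genes at 5 CPM or more). Titles of same-numbered samples also share a letter, A or B, whose meaning the labels do not give. With 2 numbers per group, whether they pair the samples was not settled. The scarce FADS3 and ELOVL6, from 43 to 183 counts, have the widest errors.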

Other observations

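Genes around the 10 described above were called in both directions, and so were genes at large. Over all tested genes 5.99% were lower and 5.72% higher at day 3, and 7.05% and 7.44% at day 5. Whether the lists below differ from these shares was not tested. Of 20 tested genes of fatty acid oxidation, HADHA and PPARD fell and DECR1 rose at day 3, while at day 5 HADHA, PPARA and PPARD fell and CPT1A, SLC25A20 and DECR1 rose. The median log2 change was 0.28 and 0.40. Leaving out 1 library gave 1 to 3 that fell and 0 to 3 that rose at day 3, and 2 to 3 and 2 to 4 at day 5. CPT1A, the gate for long chains into mitochondria, was at 107 and 121 CPM in control libraries, 138 and 147 after 3 days and 201 and 210.0 after 5, with log2 differences of 0.32 (adjusted p = 0.121) and 0.85 (adjusted p = 0.00494) in the edgeR fit. PPARD, a nuclear receptor for fatty acids, was at 126 and 123 CPM, then 46.7 and 40.4, then 49.5 and 55.7, with log2 changes of −1.52 (adjusted p = 0.00141) and −1.24 (adjusted p = 0.00213).

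Of 13 tested acyl-CoA synthetase and uptake genes, ACSL4, CD36 and DBI fell at day 3 and SLC27A1, CD36 and DBI at day 5, with 1 to 4 and 1 to 3 that fell and 0 to 1 that rose when 1 library was left out. CD36 changed by −3.17 (adjusted p = 0.00681) and −3.21 (adjusted p = 0.0052). Of 22 tested genes of triglyceride and phospholipid assembly, DGAT1, LPCAT1, LPCAT2, LPCAT4, PLIN3 and PNPLA2 fell and PLIN2 rose at day 3, and DGAT1, LPCAT3 and PNPLA2 fell and GPAT3 and PLIN2 rose at day 5. With 1 library left out, 0 to 7 fell at each day. PLIN2, a coat protein of lipid droplets, was at 10.9 and 14.8 CPM in control libraries, 26.1 and 26.0 after 3 days and 52.8 and 35.4 after 5, with log2 changes of 1.01 (adjusted p = 0.033) and 1.77 (adjusted p = 0.00467). The PLIN2 adjusted p at day 3 was 0.111 without control replicate 1, and 0.13 and 0.129 without KO day 3 replicate 1 and 2. Of 12 tested genes that release and oxygenate arachidonate, the product of FADS1, LTA4H and PTGS1 fell at both days, and 0 to 3 fell with 1 library left out.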
